A study of Caenorhabditis elegans with 4 samples.

Results

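ATP-binding cassette (ABC) transporter genes of Caenorhabditis elegans were followed in 4 preps of glp-4 animals of the L4 stage, the larval stage before adulthood. The members are all genes whose current symbol carries the name pgp, mrp, haf, abt, abcf, wht, pmp or hmt and a number. They came to 47 genes on 51 probes, of 14943 named genes on the arrays. RefSeq lists 55 genes with such a name. The other 8 (haf-6, haf-7, mrp-7, mrp-8, wht-7, wht-8, abcf-2 and the pseudogene pgp-15) were not analysed here, abcf-2 because its probe also lists a second gene. All 47 members had values on at least 3 arrays and none was left out by the filter. Only wht-1 lacked an array, prep 1.

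Each of the 4 arrays had 2 channels, with total RNA of glp-4 L4 animals of 1 prep in channel 2 and a wild-type mixed-stage reference in channel 1. Mutants of glp-4, a gene for a valyl-tRNA synthetase, are used as animals with little germline, because their germ cells do not multiply when grown warm. The labels give no allele, temperature, food or staging method, and the preps of the single group are not said to be separate cultures, so p-values cover only the spread of these preps, which may be technical. The ratio holds genotype and stage together, and these cannot be told apart here.

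Values are log2 ratios between the channels. Higher and lower below mean glp-4 L4 over reference, a direction that is likely because the labels write glp-4 L4 against the reference, but that they do not state outright. On the 4 arrays 21197 to 21488 of 21632 probes had a value, and the array medians lay between -0.12 and 0.02. Read in this direction, all 15 measured germline markers were lower, the side on which animals with little germline would lie. Their median was -3.17 ± 0.30 (SD of the medians on the 4 preps). Of 12 epidermal markers 7 were higher and 2 lower (without prep 2 or prep 4, 1 lower). Of all items tested 20.6% were higher and 24.4% lower. Whole animals were measured, so fewer cells of a type and less RNA per cell cannot be told apart.

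ABC proteins bind and hydrolyse ATP through paired nucleotide-binding domains and mostly use that energy to move lipids, peptides, metals, heme or foreign compounds across membranes. The P-glycoproteins (pgp) and multidrug resistance proteins (mrp) are full-length exporters, and several act at the apical membrane of the nematode intestine, where they are known for drug and metal tolerance. The haf, wht, pmp and hmt proteins carry 1 set of domains and work as dimers, in mitochondria, lysosome-related organelles, peroxisomes or other membranes. The abt genes encode relatives of the ABCA lipid transporters. The abcf proteins have no membrane part and act in translation.

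Most of the transporter genes that differed from the reference were higher in glp-4 L4. Of 47 members, 26 were higher, 4 lower and 17 did not pass (limma, Benjamini-Hochberg adjusted p under 0.05 over all items). Over all 19989 genes and unnamed probes tested, 45.0% passed, 20.6% as higher and 24.4% as lower, against 55.3% higher and 8.51% lower among the members. Past a change of 2-fold (limma treat) lay 10 members, all higher, while 4.38% of all items were past it on that side. The median log2 ratio of the members was 0.64, with 0.44, 0.65, 0.84 and 0.65 on preps 1 to 4, against -0.02 over all named genes. Every member that passed had the same sign on each array that measured it. The median SD between preps was 0.33 for members and 0.30 for all items. The lower side changed most when preps were left out: it held 2 members without prep 2, 2 without prep 3 and 1 without prep 4.

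**Figure D1:**
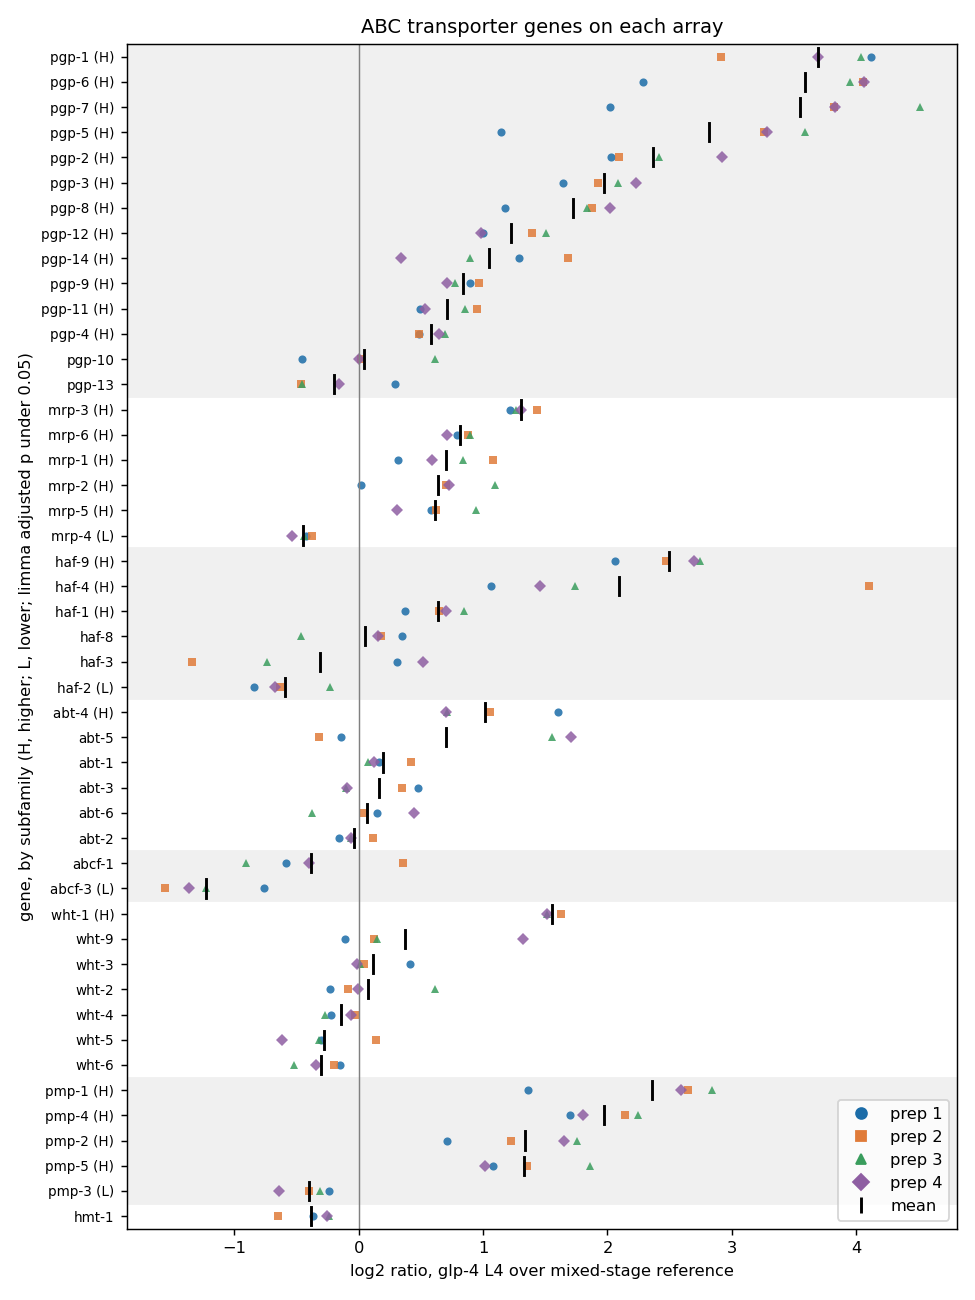
Log2 ratio (glp-4 L4 over reference, horizontal axis) of each of the 47 members on the 4 arrays, with 1 symbol per prep and a bar at the mean, grouped by subfamily and ordered by mean. The means of pgp-1, pgp-5, pgp-6 and pgp-7 lie above 2.5, while most abt and wht genes lie near 0.

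The counts varied by subfamily. P-glycoproteins had 12 of 14 genes higher and 0 lower, multidrug resistance proteins 5 of 6 higher and 1 lower, and pmp genes 4 of 5 higher and 1 lower. The haf genes were split, with 3 of 6 higher and 1 lower. Of the abt genes 1 of 6 was higher, of the wht genes 1 of 7, and none of either was lower, so their higher counts were near the 20.6% of all items. Neither abcf gene was higher and 1 was lower, and hmt-1 did not pass. Median log2 ratios were 1.47 ± 0.27 for pgp (SD over 4 preps), 1.34 ± 0.34 for pmp, 0.67 ± 0.20 for mrp, 0.35 ± 0.13 for haf, 0.18 ± 0.12 for abt, 0.07 ± 0.10 for wht and -0.81 ± 0.21 for abcf. Each is the median of the member means, and its SD is that of the medians on the 4 preps, which may centre elsewhere. For wht the medians on preps 1 to 4 were -0.19, 0.04, 0.01 and -0.01. Medians of the gene lists are given in the same way. No test was made between subfamilies. The mrp count became 3 higher without prep 2, abt counted 2 higher without prep 1 or prep 2, and abcf 2 lower without prep 2. Without moderation the higher counts were 10 for pgp, 2 for mrp, 2 for haf, 0 for abt and 4 for pmp. At an adjusted p under 0.01, mrp had 3 higher, and at an absolute mean of at least 1 it had 1. The abt median became 0.11 without prep 2, and the wht median 0.01 without prep 1, 0.13 without prep 2 and -0.11 without prep 3.

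**Figure D2:**
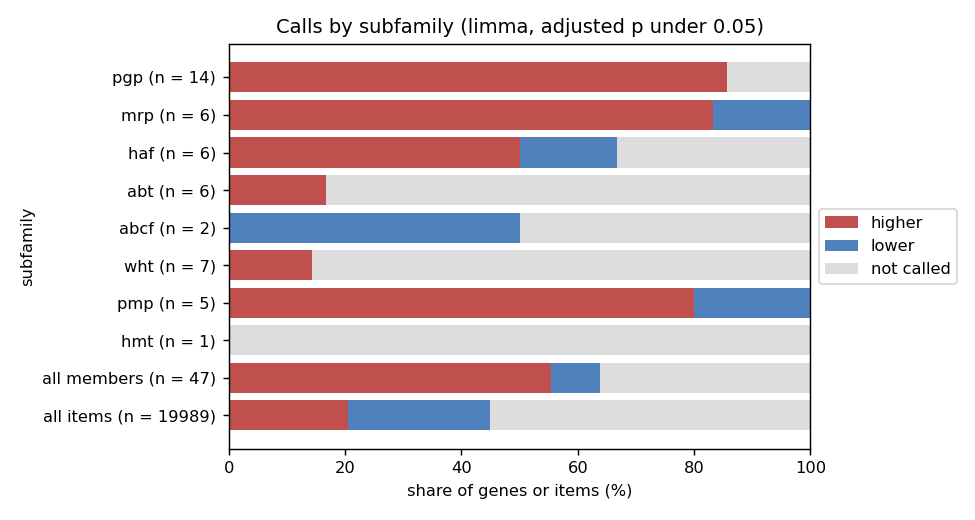
Share of genes (%, horizontal axis) called higher, lower or not called by limma in each subfamily, in all 47 members and in all 19989 items tested. The pgp, mrp and pmp bars are mostly higher calls, against 20.6% of all items.

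Among the P-glycoproteins, pgp-1, an exporter of the intestinal apical membrane known from metal tolerance, had the highest mean of all members. Its log2 ratio was 4.12, 2.91, 4.04 and 3.69 on preps 1 to 4. All 4 values lay above those of pgp-2 or pgp-3 on the same arrays. The mean was 3.69 ± 0.55 (SD, n = 4), or 12.9-fold (limma adjusted p = 6.4e-06).

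The gene pgp-2 encodes a transporter of the gut granules, the lysosome-related organelles of the intestine. It had 2.03, 2.09, 2.41 and 2.92 on preps 1 to 4, a mean of 2.36 ± 0.41 (SD, n = 4; limma adjusted p = 2.4e-05). The chloroquine and colchicine resistance gene pgp-3 had 1.64, 1.92, 2.08 and 2.23, a mean of 1.97 ± 0.25 (SD, n = 4; limma adjusted p = 2.5e-05). Both genes were lowest on prep 1 and highest on prep 4, and every value was above 1.6.

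The genes pgp-5, pgp-6, pgp-7 and pgp-8 stand next to each other on chromosome X, in the order pgp-5, pgp-8, pgp-7, pgp-6. On preps 1 to 4, pgp-6 had 2.29, 4.06, 3.95 and 4.06, a mean of 3.59 ± 0.87 (SD, n = 4; limma adjusted p = 3.5e-05). For pgp-7 the values were 2.02, 3.82, 4.51 and 3.83, with a mean of 3.55 ± 1.07 (limma adjusted p = 8.8e-05). For pgp-5, which is known from cadmium responses, they were 1.14, 3.26, 3.59 and 3.29, with a mean of 2.82 ± 1.13 (limma adjusted p = 4.0e-04). All 3 genes were lowest on prep 1 by more than 1.7 below the mean of the other preps. The fourth gene, pgp-8, had 1.18, 1.87, 1.83 and 2.02, a mean of 1.73 ± 0.38 (limma adjusted p = 9.5e-05). It lay below pgp-6 and pgp-7 on all 4 arrays, by means of 1.86 ± 0.50 and 1.82 ± 0.75 on the log2 scale.

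Probes of close relatives can bind each other's transcripts. Probe and gene sequences were not compared here, so how far these 4 values are separate was not tested.

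Another pair of neighbours on X, pgp-3 and pgp-4, differed. The log2 ratio of pgp-4 was 0.49, 0.48, 0.70 and 0.65 on preps 1 to 4, a mean of 0.58 ± 0.11 (SD, n = 4; limma adjusted p = 0.0078). Both were called higher, and pgp-3 exceeded pgp-4 by 1.16, 1.44, 1.39 and 1.59, a mean difference of 1.39 ± 0.18.

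The third run on X holds pgp-12, pgp-13 and pgp-14. The excretory cell gene pgp-12 had 1.00, 1.39, 1.504 and 0.98 on preps 1 to 4, a mean of 1.22 ± 0.27 (SD, n = 4; limma adjusted p = 0.00032). For pgp-14, known from the lipid barrier of the pharyngeal cuticle, the values were 1.29, 1.68, 0.89 and 0.34, with a mean of 1.05 ± 0.57 (limma adjusted p = 0.0046). Between them, pgp-13 had 0.29, -0.47, -0.46 and -0.16, a mean of -0.20 ± 0.36 (limma adjusted p = 0.36), and lay below both neighbours on all 4 arrays.

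In all, 11 pairs of members with at most 1 gene between them were compared by an exact two-sided sign-flip permutation test over preps. Its smallest possible p with 4 preps is 0.125, so no pair could pass 0.05. That p was reached by 7 pairs, those with 1 sign on 4 of 4 arrays (Benjamini-Hochberg adjusted p = 0.196 over the 11 pairs, exact test). The pairs pgp-7 and pgp-6 (mean difference -0.04 ± 0.40) and mrp-2 and mrp-1 (-0.07 ± 0.32) had mixed signs, with exact p of 1.0 and 0.75.

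**Figure D3:**
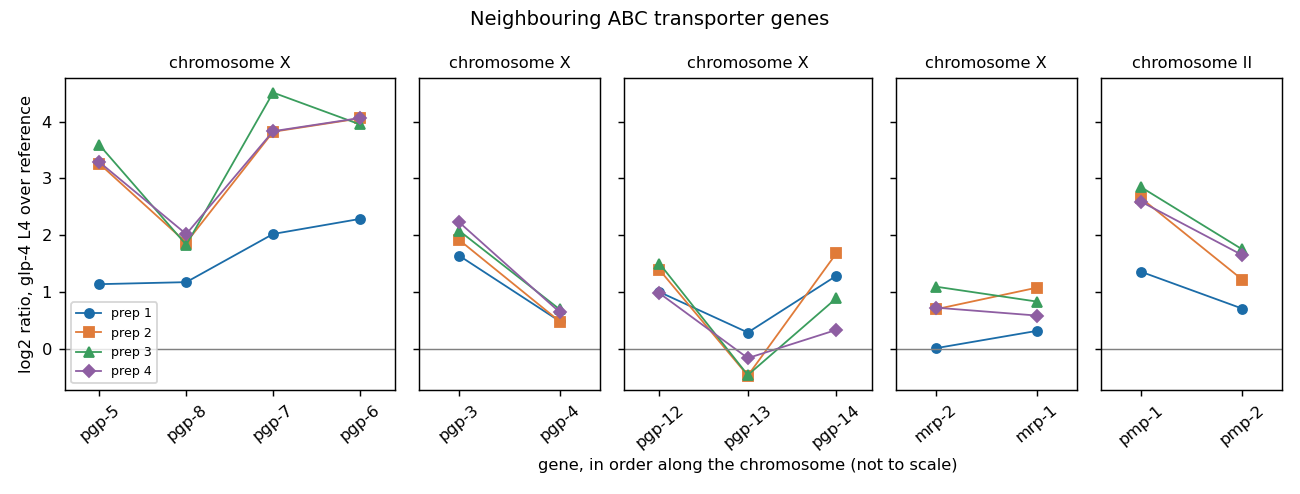
Log2 ratio (vertical axis) of members that stand next to each other on a chromosome, in gene order and not to distance, with 1 line per prep. Prep 1 lies lowest for pgp-5, pgp-6, pgp-7, pmp-1 and pmp-2, and pgp-13 dips below both of its neighbours on every array.

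The remaining P-glycoproteins all had means below 1. The genes pgp-9 at 0.84 ± 0.12 (SD, n = 4; limma adjusted p = 0.0012) and pgp-11 at 0.71 ± 0.23 (limma adjusted p = 0.0047), both studied for ivermectin tolerance, were higher on 4 of 4 arrays. The gene pgp-10 ranged from -0.46 on prep 1 to 0.61 on prep 3 (mean 0.04, limma adjusted p = 0.86).

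Multidrug resistance proteins were higher by smaller amounts. The largest was mrp-3, with 1.22, 1.43, 1.26 and 1.31 on preps 1 to 4 and a mean of 1.305 ± 0.09 (SD, n = 4; limma adjusted p = 1.0e-04). Its 4 values lay within 0.21 of each other. The gene mrp-6 had a mean of 0.82 ± 0.09 (limma adjusted p = 0.0012), and mrp-1, known from cadmium and arsenite tolerance, 0.71 ± 0.33 (limma adjusted p = 0.0079). The intestinal heme exporter mrp-5 had 0.58, 0.62, 0.94 and 0.31, a mean of 0.61 ± 0.26 (limma adjusted p = 0.011). For mrp-2 the range was wide, from 0.01 on prep 1 to 1.097 on prep 3 (mean 0.63 ± 0.45, limma adjusted p = 0.024).

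The exception was mrp-4, known with pgp-2 from birefringent material in the gut lumen of embryos. It had -0.43, -0.37, -0.44 and -0.54 on preps 1 to 4, a mean of -0.44 ± 0.07 (SD, n = 4; limma adjusted p = 0.023), lower on 4 of 4 arrays. Its call was lost without prep 2, 3 or 4 (limma adjusted p = 0.083, 0.058 and 0.10). The call of mrp-2 was lost without the same preps (limma adjusted p = 0.081, 0.10 and 0.09) and that of mrp-1 without prep 2 (limma adjusted p = 0.051). With the code that the titles of preps 3 and 4 share as a random block, mrp-4 and mrp-2 lost their calls (limma adjusted p = 0.052 and 0.056), as they did with those preps averaged (0.061 and 0.084).

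Of the haf genes, the gut granule partners haf-9 and haf-4 had the largest ratios. HAF-4 and HAF-9 are known to form a complex in the granule membrane. For haf-9 the values on preps 1 to 4 were 2.06, 2.47, 2.75 and 2.70, with a mean of 2.49 ± 0.31 (SD, n = 4; limma adjusted p = 1.1e-05). Averaged over its 2 probes, haf-4 had 1.06, 4.10, 1.74 and 1.46, a mean of 2.09 ± 1.37 (limma adjusted p = 0.0048).

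The spread of haf-4 came from 1 spot. Its first probe had 0.68, 6.59, 1.80 and 1.19 on preps 1 to 4, and its second 1.45, 1.62, 1.67 and 1.73. On prep 2 the probes differed widely, while on preps 1, 3 and 4 they lay within 0.8 of each other. From the second probe alone, an alternative chosen after seeing the data, haf-4 had a mean of 1.62 ± 0.12 (limma adjusted p = 3.8e-05) and lay past 2-fold (limma treat adjusted p = 0.013, against 0.17 for both probes). Without prep 2 the mean of both probes was 1.42.

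The mitochondrial peptide exporter haf-1, known from the mitochondrial unfolded protein response, had 0.37, 0.65, 0.84 and 0.70 on preps 1 to 4 and a mean of 0.64 ± 0.20 (SD, n = 4; limma adjusted p = 0.0066). In contrast, haf-2, a gene linked to RNA interference efficiency, had -0.84, -0.63, -0.23 and -0.67, a mean of -0.59 ± 0.26 (limma adjusted p = 0.013). Both kept 1 sign on 4 of 4 arrays, and the haf-2 call was lost without prep 2 (limma adjusted p = 0.056) or prep 4 (limma adjusted p = 0.059). The genes haf-3 and haf-8 changed sign between arrays, haf-3 from -1.34 on prep 2 to 0.52 on prep 4.

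The pmp genes were higher except for pmp-3. They belong to the ABCD class, best known for carrying fatty acyl groups into peroxisomes. The neighbours pmp-1 and pmp-2 on chromosome II were both higher. On preps 1 to 4, pmp-1 had 1.36, 2.65, 2.84 and 2.59, a mean of 2.36 ± 0.68 (SD, n = 4; limma adjusted p = 0.00011). For pmp-2 the values were 0.71, 1.22, 1.75 and 1.65, with a mean of 1.34 ± 0.48 (limma adjusted p = 0.00072). Prep 1 was the lowest for both, and pmp-1 exceeded pmp-2 on 4 of 4 arrays, by 1.03 ± 0.33. The 2 probes of pmp-2 had means of 1.32 and 1.35.

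The gene pmp-4 had 1.70, 2.14, 2.25 and 1.80 on preps 1 to 4. Its mean was 1.97 ± 0.26 (SD, n = 4; limma adjusted p = 2.6e-05), and its 2 probes had means of 2.08 and 1.87. For pmp-5 the values were 1.08, 1.36, 1.86 and 1.02, with a mean of 1.33 ± 0.38 (limma adjusted p = 0.00042). The exception, pmp-3, had -0.24, -0.40, -0.31 and -0.64, a mean of -0.40 ± 0.17 (limma adjusted p = 0.047). It was below 0 on 4 of 4 arrays, but the call was lost when arrays were centred on their medians (mean -0.35, limma adjusted p = 0.079) and without prep 2, 3 or 4 (limma adjusted p = 0.15, 0.083 and 0.21). It was also lost with the title code as a random block and with preps 3 and 4 averaged (limma adjusted p = 0.10 in both).

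Of the ABCA-type genes only abt-4 passed. It had 1.604, 1.06, 0.71 and 0.70 on preps 1 to 4, a mean of 1.02 ± 0.42 (SD, n = 4; limma adjusted p = 0.0022), and prep 1 was its highest value. Its 2 probes had means of 1.06 and 0.98. The gene abt-5 split by array, with -0.15 and -0.32 on preps 1 and 2 and 1.55 and 1.71 on preps 3 and 4 (mean 0.70 ± 1.08, limma adjusted p = 0.14). Preps 3 and 4 share a code and a date in their titles, whose meaning the labels do not give, and their part in this split was not tested. Without prep 1 or prep 2, abt-5 passed (limma adjusted p = 0.041 and 0.045). The means of abt-1, abt-2, abt-3 and abt-6 lay between -0.04 and 0.20.

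Among the wht genes, relatives of the fly White pigment transporter, wht-1 was higher. It had 1.63, 1.52 and 1.51 on preps 2 to 4 and no value on prep 1, so its mean of 1.55 ± 0.07 rests on 3 arrays (SD, n = 3; limma adjusted p = 0.00022). The other wht means ran from -0.30 for wht-6 to 0.37 for wht-9. The wht-9 mean held 1 high value, 1.32 on prep 4, where the other preps had -0.11 to 0.15 (limma adjusted p = 0.23). RefSeq lists wht-9, abt-3 and abt-6 as pseudogenes, and none of these 3 passed.

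Of the 2 abcf genes, abcf-3 was lower and abcf-1 did not pass. ABCF-3 is known to act with GCN-1 in translational control. The values of abcf-3 were -0.76, -1.56, -1.23 and -1.36 on preps 1 to 4, a mean of -1.23 ± 0.34 (SD, n = 4; limma adjusted p = 0.00049), the largest negative ratio of the members, or 2.34-fold lower. For abcf-1 they were -0.58, 0.35, -0.91 and -0.40, with a mean of -0.38 ± 0.53 (limma adjusted p = 0.16). It was above 0 on prep 2 only, and without that prep it passed (mean -0.63, limma adjusted p = 0.037).

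The transporter gene hmt-1, which protects against cadmium, had -0.37, -0.65, -0.24 and -0.26 on preps 1 to 4. Its mean of -0.38 ± 0.19 (SD, n = 4) did not pass (limma adjusted p = 0.056), although all 4 values were below 0.

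The preps were not alike. Over all probes the SD of the log2 ratios was 0.923, 0.995, 1.06 and 1.09 on preps 1 to 4, narrowest on prep 1. The epidermal marker col-19, picked after its values were seen, had 2.15, 1.26, -0.60 and -1.89 on preps 1 to 4. Of the 25 members that were higher and measured on all 4 arrays, 16 (64.0%) had their lowest value on prep 1 and 13 (52.0%) their highest on prep 3. Over the 4060 items that were higher and on all 4 arrays, these shares were 58.1% and 40.5%. Prep 4 was the lowest for 7 of the 25 members against 15.1% of all higher items, and the highest for 4 of 25 against 30.9%. None of the 25 members was lowest on prep 3, against 12.5% of all higher items, and these differences were not tested. Prep 1 lay below the mean of the other preps by 2.24 for pgp-5, 2.03 for pgp-7, 1.74 for pgp-6, 1.37 for haf-4 and 1.34 for pmp-1. It lay above that mean by 0.78 for abt-4 and 0.57 for pgp-1.

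**Figure D4:**
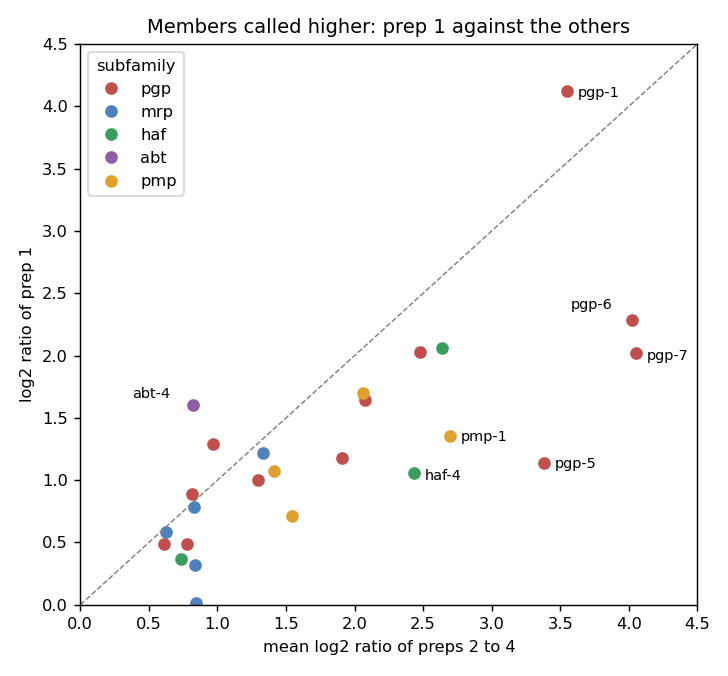
Log2 ratio on prep 1 (vertical axis) against the mean of preps 2 to 4 (horizontal axis) for the 25 members called higher and measured on all 4 arrays, coloured by subfamily, with the line of equal values dashed. The points of pgp-5, pgp-6 and pgp-7 lie farthest below the line, and pgp-1 and abt-4 lie above it.

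By chromosome, 16 members lie on X, namely 10 pgp and all 6 mrp genes. Of these 13 were higher and 1 lower, and of the 31 autosomal members 13 were higher and 3 lower. Over all named genes tested, 32.4% of X-linked and 21.8% of autosomal genes were higher, and 16.2% and 25.5% were lower. On X 8 of 10 pgp genes were higher and on the autosomes 4 of 4, so pgp genes were mostly higher on both. The measured mrp genes lay only on X and those of the other subfamilies only on autosomes. For these, subfamily and chromosome cannot be told apart.

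ABC genes outside the naming rule lay on both sides of 0. Of 5 measured, 2 were higher and 0 lower (without prep 2, 3 or 4, 1 higher). The list median was -0.08 ± 0.30 (0.02 without prep 1), and on prep 2 it was 0.50. Of all items 20.6% were higher and 24.4% lower. Among them were abch-1 at 0.68 ± 0.19 (SD, n = 4; limma adjusted p = 0.0047) and cft-1, a relative of the cystic fibrosis channel gene, at 0.51 ± 0.17 (limma adjusted p = 0.017). Chosen after their values were seen, the corpse engulfment gene ced-7 had -0.08 ± 0.07 and the ribosome recycling factor abce-1 -0.17 ± 0.49.

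Genes of the peroxisome, where transporters of the ABCD class are best known to act, were mostly higher, against 20.6% of all items. Of 24 genes for peroxisome assembly and beta-oxidation, 20 were higher and 1 lower (0 lower without prep 2 or prep 4), with a median of 1.37 ± 0.27 (SD over 4 preps), against -0.02 over all named genes. The acyl-CoA oxidase genes acox-1.2 and acox-1.4, which shorten fatty acyl chains including those of ascaroside pheromones, had 4.51 ± 0.54 and 3.60 ± 0.35 (both limma adjusted p = 2.6e-06).

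Other genes of the gut granules, the site of PGP-2, HAF-4 and HAF-9, lay on both sides of 0. Of 17 measured, 5 were higher and 4 lower (2 lower without prep 4), near the 20.6% and 24.4% of all items. The median of 0.11 ± 0.24 became 0.23 without prep 1, 0.05 without prep 3 and 0.07 without prep 4. The granule biogenesis gene glo-3 had 1.72 ± 0.23 and the zinc transporter gene cdf-2 of the granule membrane 1.67 ± 0.22 (limma adjusted p = 4.3e-05 and 4.7e-05). The lower genes were glo-2 at -1.02, vps-39 at -0.83, flcn-1 at -0.63 and vps-33.2 at -0.54, named after their values were seen.

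Metal and heme genes were higher more often than lower, while of all items 20.6% were higher and 24.4% lower. Of 14 metal handling genes, 10 were higher and 2 lower (1 lower without prep 3 or prep 4), with a median of 1.11 ± 0.22. The metallothionein mtl-2 had 2.15 ± 0.23 and cdr-2, of the cadmium-responsive family, 2.08 ± 0.21 (limma adjusted p = 1.4e-05 and 1.5e-05). The lower metal genes were ftn-1 at -1.96 and numr-1 at -0.75, named after their values were seen. Of 5 heme genes, 3 were higher and 0 lower, with the intestinal heme importer hrg-4 at 2.44 ± 0.39 (limma adjusted p = 1.8e-05). The heme signalling gene hrg-7 had 2.17, 2.90, 3.26 and 0.28 on preps 1 to 4, a mean of 2.15 ± 1.33 (limma adjusted p = 0.0036), low on prep 4.

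Of 14 measured regulators of the xenobiotic response, 3 were higher and 4 lower (6 lower without prep 1), near the 20.6% and 24.4% of all items. Their median was -0.29 ± 0.15. The nuclear receptor gene nhr-8, which xenobiotic resistance needs, had 1.64, 1.74, 2.49 and 2.21 on preps 1 to 4 and a mean of 2.02 ± 0.40 (SD, n = 4; limma adjusted p = 4.9e-05). The receptor gene nhr-176 had 1.32 ± 0.15 (limma adjusted p = 0.00012).

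Genes linked to abcf-3 in translational control were on both sides of 0. For the counts of both lists below, 20.6% of all items were higher and 24.4% lower. In the list for the GCN pathway and ribosome rescue, 4 of 8 were higher and 1 lower (0 lower without prep 4), with a median of 0.43 ± 0.39. The transcription factor gene atf-4 had 1.17 ± 0.19 and the release factor gene erfa-3 1.102 ± 0.74 (limma adjusted p = 0.00026 and 0.0085). The lower gene was gcn-2 at -0.53 ± 0.09 (limma adjusted p = 0.011), named after its values were seen. In the list for the mitochondrial unfolded protein response, the pathway of haf-1, 0 of 7 were higher and 3 lower by limma (2 higher without prep 1, and 1 lower without prep 2 or prep 4). Its median of 0.16 ± 0.27 became -0.03 without prep 3, and the medians on preps 1, 2 and 4 were all below 0. The chaperone gene hsp-6 and the protease gene clpp-1 had -0.87 ± 0.23 and -0.47 ± 0.02 (limma adjusted p = 0.0016 and 0.018).

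Markers of the intestine, where many members are expressed, were mostly higher too, against 20.6% of all items. Of 17 measured, 15 were higher and 1 lower (0 lower without prep 1, 3 or 4), led by the gut esterase ges-1 at 2.57 ± 0.16 and gst-4 at 2.56 ± 0.63. The list median was 1.74, 1.32, 1.52 and 1.00 on preps 1 to 4, highest on prep 1. Of the 25 members higher and on all 4 arrays, 8.0% were highest and 64.0% lowest on prep 1. Over all such items these shares were 11.3% and 58.1%. The part of intestinal RNA content in the ratios of the members was not tested.

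For the other tissues with known member expression, 4 of 10 excretory cell markers were higher and 2 lower (median 0.22 ± 0.16, and 0.39 without prep 1), vha-8 at 1.31 ± 0.33 and sulp-5 at -2.33 ± 0.30. Of 10 pharyngeal markers 3 were higher and 4 lower (median -0.40 ± 0.20), phat-4 at 2.87 ± 0.38 and phat-5 at -2.17 ± 0.52. Without prep 4 the lower pharyngeal markers were 2, and without prep 2, 3 or 4 the higher ones were 2. Of 12 neuronal markers 0 were higher and 7 lower by limma (4 lower without prep 2 or prep 4), with egl-3 at -1.81 ± 0.25 and unc-17 at -0.81 ± 0.26, and of 9 muscle markers 5 were higher and 0 lower, with unc-27 at 2.196 ± 0.55 and dim-1 at 1.80 ± 0.20. Germline markers were led by pos-1 at -5.06 ± 0.67 and oma-2 at -4.91 ± 0.39, and epidermal ones by the collagens bli-2 at 5.78 ± 0.57 and bli-1 at 3.98 ± 0.08. The lower epidermal markers were elt-1 at -0.67 and elt-3 at -0.41, named after their values were seen. Of all items 20.6% were higher and 24.4% lower, and the counts of these short lists were not tested against those shares. The part of these tissues in the members' ratios was not tested.

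**Figure D5:**
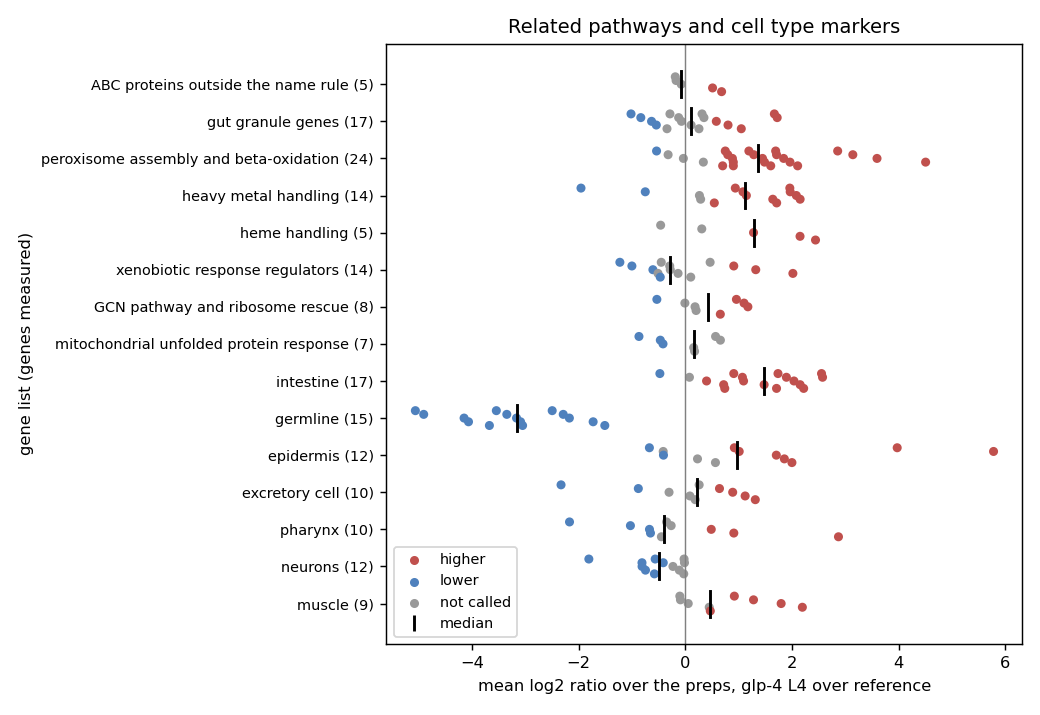
Mean log2 ratio (horizontal axis) of each measured gene of 8 related pathway lists and 7 cell type marker lists, coloured by its limma call, with a bar at the list median. Peroxisome, metal and intestinal genes lie mostly above 0, germline markers all lie below 0, and gut granule genes lie on both sides.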

How the data were processed

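The table deposited by the authors holds 1 log2 ratio of the 2 channels per probe and array. Base 2 was inferred: taken as powers of 2, 100.0% of the ratios under 20 came to whole thousandths, with a tolerance of 0.01 thousandths. How the authors scanned, corrected and normalized the arrays is not stated in the sources used. Intensities were not used, and precision is limited by having 4 arrays.

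Probes were named from the platform annotation, updated through a RefSeq gene table of assembly WBcel235. In all 16450 probes had 1 gene symbol, 247 several and 4935 none. Probes of a gene were averaged per array. Items with values on at least 3 arrays (19989) entered limma 3.58.1 in R 4.3.3 (mean against 0 with eBayes, two-sided, and treat at 2-fold). The threshold was an adjusted p under 0.05 by Benjamini-Hochberg over all items. Only the limma calls at this threshold were tested on simulated data. Each simulated prep was drawn independently, so a dependence between preps 3 and 4 was not covered. The reference enters as a fixed level, without its own spread.

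Members and lists were chosen with earlier results of these data known. Per-prep values are given for members past the threshold with an absolute mean of at least 1 and for the largest of each subfamily. They are also given for other members outside this rule, such as pgp-4, pgp-13, mrp-4 and haf-1, picked after their values were seen. From each list were named the 2 genes with the largest absolute mean among those past the threshold on all 4 arrays with 1 sign. Other genes named were chosen after their values were seen. Protein and promoter sequences were not used here, so the planned description of them was not made. Alternatives covered centring, scaling, the array minimum, each prep left out, the title code that preps 3 and 4 share together with a date, probes, moderation, thresholds and sign.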

Additional observations from a re-analysis of the deposited data

Results flagged for a closer look

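Dixon's ratio was computed for 98 genes or list medians over the 4 preps, and in 9 of them a single prep stood apart. Chance gives about 1 in 20, here 4.9. Among members, prep 1 stood apart for pgp-5 (1.14, others 3.26 to 3.59), pgp-6 (2.29, others 3.95 to 4.06) and wht-3 (0.41, others -0.01 to 0.04). The median of the metal handling list was 0.78 on prep 1 against 1.18 to 1.24. On prep 3 the median of the mitochondrial unfolded protein response list was 0.41 against -0.17 to -0.12, and that of the epidermal markers 1.47 against 1.00 to 1.04. Single list genes that stood out were nhr-176 with 1.54 on prep 2 against 1.24 to 1.27, vha-8 with 1.80 on prep 3 against 1.11 to 1.19, and dim-1 with 2.10 on prep 3 against 1.66 to 1.73.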

How the results depend on the processing

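The 26 higher members became 25 to 27 when each prep was left out in turn, 19 without moderation, 24 at an adjusted p under 0.01 and 18 at an absolute mean of at least 1. The 10 members past 2-fold became 8 to 12 without single preps, and the median of 0.64 became 0.54 to 0.78. The 4 lower members became 1 to 4 without single preps, 2 with preps 3 and 4 averaged, 2 with the title code as a random block, 2 without moderation, 1 at an adjusted p under 0.01 and 1 at an absolute mean of at least 1. With every sign turned there were 4 higher and 26 lower members and the median was -0.64, by construction; turning was not run for single members or subfamilies. The wht median of 0.07 became -0.036 over items on all 4 arrays, -0.106 to 0.127 without single preps (negative without prep 3) and -0.0035 with preps 3 and 4 averaged. The 20 members followed were those called with an absolute mean of at least 1 and the largest of each subfamily. That choice favours stable calls, and the setting of an absolute mean of at least 1 could not change them. Of their 319 values, 315 kept their direction and side of the threshold and 0 changed direction. The 4 others lost the call without moderation, namely pgp-5, pgp-14, haf-4 and abt-4 (limma without moderation, adjusted p = 0.055, 0.091, 0.12 and 0.058). Among members not followed, mrp-1, mrp-2, mrp-4, mrp-5, haf-2 and pmp-3 lost their calls under some alternatives. There abt-5 and abcf-1 gained calls without single preps. limma's duplicateCorrelation gave no value, so the block's correlation, 0.446, came from the variances within and between codes. Treat was not run without moderation. No paired analysis was possible because all preps belong to a single group. Spot brightness was not used, so dim spots could not be judged.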
